A study of Homo sapiens with 12 samples.

Results

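The comparison described here is the difference of the ADI-PEG20 effect between TOM-1 and RS4;11, a pair of human B-cell acute lymphoblastic leukaemia lines. All 12 libraries of the study enter it, 3 in each of 4 groups, and 17349 of the 60664 genes in the table had enough counts to be tested. Each line was kept with the drug or as an untreated control, which gives the 4 groups. All were labelled as wild type, grown in the same serum-supplemented medium and collected after 24 h. The treated cultures received 1000 ng/ml of the drug during log-phase growth. TOM-1 carries the BCR-ABL1 fusion of the Philadelphia chromosome, and RS4;11 carries a KMT2A rearrangement. Each genotype is represented by 1 cell line, so the fusion and any other property of a line cannot be told apart. Nothing in the labels says that replicates were separate cultures, so the p-values measure only the spread between these samples, which may be technical.

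ADI-PEG20 is a pegylated bacterial arginine deiminase, which converts the arginine of the medium to citrulline. Cells that express argininosuccinate synthase (ASS1) and argininosuccinate lyase (ASL) can rebuild arginine from citrulline, and cells that lack ASS1 depend on arginine from outside. When an amino acid runs short, uncharged tRNA activates the kinase GCN2, phosphorylation of eIF2 alpha slows translation, and the transcription factor ATF4 is translated and raises genes of amino acid uptake, tRNA charging and stress feedback, while mTORC1 is switched off. The series title concerns ASS1 deficiency in leukaemia with the Philadelphia chromosome, and the question put to the data is which genes responded differently in the 2 lines.

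Throughout, the effect in a line is the log2 fold change of treated over control libraries, and the difference is the TOM-1 effect minus the RS4;11 effect. Levels are CPM, the gene's reads relative to the depth of its library, after edgeR's TMM scaling (a trimmed mean of log ratios between libraries). Calls are at an adjusted p under 0.05 in edgeR's quasi-likelihood test with Benjamini-Hochberg adjustment over all tested genes. Since RNA was taken from bulk cultures, fewer cells of a kind and less RNA per cell cannot be told apart.

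Total counts ran from 18958144 to 35956959 per library. TOM-1 control replicate 3 stood apart from the others. It had reads in 14963 genes against 19857 to 21997 elsewhere, ribosomal protein genes took 19.9% of its counts against 9.0% and 9.26% in the other TOM-1 controls, and its log2 CPM correlated with those controls at r of 0.951 and 0.949 across genes, against at least 0.992 in every other replicate pair. The main counts are therefore given with all 12 libraries and again without that library. As a check of the lines, HOXA9 and MEIS1, known markers of leukaemia with a KMT2A rearrangement, were at 0 counts in each TOM-1 library and at 1424 to 1942 counts in the 6 RS4;11 libraries. All 9 B-lymphoblast markers were above the floor of 3 counts in each library. Of 24 markers of other blood and stromal cells, 5 to 9 were above it. CD3G, ELANE, HBB and DCN were at 0 everywhere, which allows up to 3 counts per library. Other markers were well above the floor. The highest counts in a TOM-1 and an RS4;11 library were 1252 and 1274 for NKG7 and 8912 and 27 for PECAM1. They were 493 and 23 for MPO, 144 and 417 for CSF1R and 13 and 161 for COL1A1.

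The drug's effect differed between the lines for 2072 genes, 11.9% of those tested. The difference was higher in TOM-1 for 1022 genes (5.89%) and lower for 1050 (6.05%). Within TOM-1 the same fit called 2765 genes higher (15.9%) and 2762 lower (15.9%). In RS4;11 it called 0 genes (0%), with 325 at an unadjusted p under 0.05, a smaller share of the tested genes than 0.05. In RS4;11 DESeq2 called 0 genes as well, and limma's voom with sample quality weights called 17. These 0 calls do not show that RS4;11 did not respond. Confidence intervals of its effect reached a median of 0.65 to either side with 12 libraries and 0.375 without TOM-1 control replicate 3. The median size of the RS4;11 effect over all tested genes was 0.149 and 0.158 in these fits. The cause of the wider intervals was not tested. Over the 2072 genes the median size of the effect was 1.2 in TOM-1 and 0.10 in RS4;11 on the log2 scale, and the TOM-1 effect was the larger in 2049. Over all tested genes the median difference was 0.042.

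Without TOM-1 control replicate 3 the difference was called for 5567 of 18321 genes (30.4%), with 2876 higher in TOM-1 (15.7%) and 2691 lower (14.7%). Of the 2072 genes, 2069 were called in the same direction without that library. The TOM-1 effect was then called higher for 3996 genes (21.8%) and lower for 3620 (19.8%), and the RS4;11 effect for 58 genes in either direction (0.317%). Leaving out TOM-1 control replicate 1 or 2 gave 2748 and 2643 genes with a called difference, and leaving out any 1 treated TOM-1 library or any 1 RS4;11 library gave between 1169 and 1375. Of the 69 named genes with a called difference, 20 lost the call in at least 1 of 12 fits with a library left out. None lost it in the fit without TOM-1 control replicate 3. The naming rule required a call in that fit of TOM-1 only, opposite and list genes, so for them this was fixed in advance. The number of fits that lost the call is given beside each of the 20.

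Genes were then sorted by which line moved. A line was taken to move where all of its treated libraries lay above, or all below, all of its control libraries. This held for 46.2% of genes in TOM-1 and for 16.8% in RS4;11. Groups this small can also separate without an effect of the drug, so a move is not a call. With all 12 libraries 0 genes of any class had a called RS4;11 effect. Genes that moved the same way in both lines are called together. The other classes also needed a called difference: opposite for genes that moved in both lines in opposite directions, and TOM-1 only or RS4;11 only for those that moved in 1 line. The sort put 1579 genes in the TOM-1 only class (9.1%), 1400 in the together class (8.07%), 149 in the opposite class (0.859%) and 10 in the RS4;11 only class (0.0576%), and left 14211 unsorted, none of them with a called difference. Without TOM-1 control replicate 3 the classes held 4193 genes (22.9%), 1503 (8.2%), 476 (2.6%) and 70 (0.382%). With fewer control libraries, separation in TOM-1 was then easier to meet, so the class sizes are not on equal terms. In both sorts the class was the same for 1572, 1380, 148 and 4 of these genes.

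**Figure D1:**
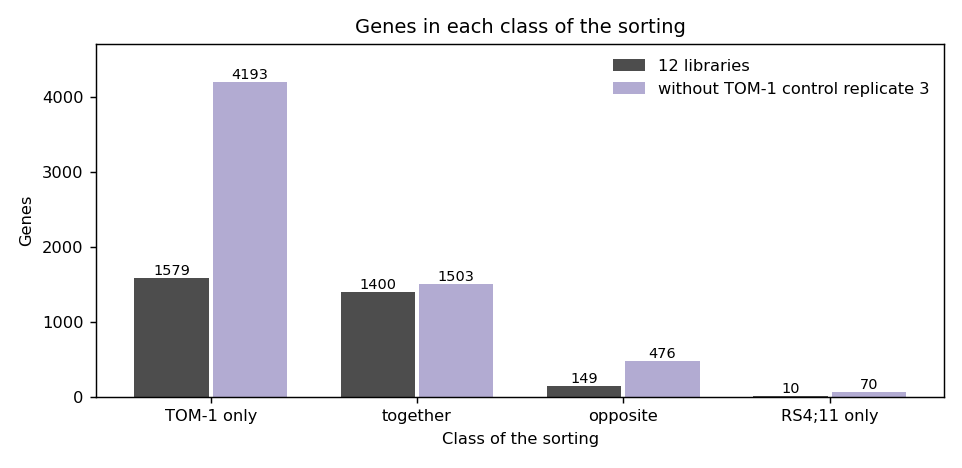
Bars give the number of genes in each class of the sorting (vertical axis) for the complete set of 12 libraries and for the set that leaves out TOM-1 control replicate 3. The TOM-1 only class grew from 1579 to 4193 genes and the opposite class from 149 to 476. The together class held 1400 and 1503. Separation in TOM-1 is easier to meet in the smaller set, which has fewer control libraries.

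Direction and size differed by class. The TOM-1 only class held 826 genes higher in treated TOM-1 and 753 lower, of which 1576 had a called TOM-1 effect, with a median effect size of 1.19 there and 0.074 in RS4;11. For 1085 of these 1579 genes the 95% confidence interval of the RS4;11 effect lay within a 1.5-fold change, and for the others it reached beyond that. The together class held 606 genes higher and 794 lower in both lines, and its median effect sizes were 0.97 in TOM-1 and 0.22 in RS4;11, so moving together did not mean moving equally. The TOM-1 effect was the larger in 1362 of the 1400, and the difference itself was called for 334. In the opposite class 100 genes were higher in treated TOM-1 and lower in treated RS4;11, and 49 did the reverse, 0.576% of all genes for the first orientation, with median sizes of 0.87 and 0.21.

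**Figure D2:**
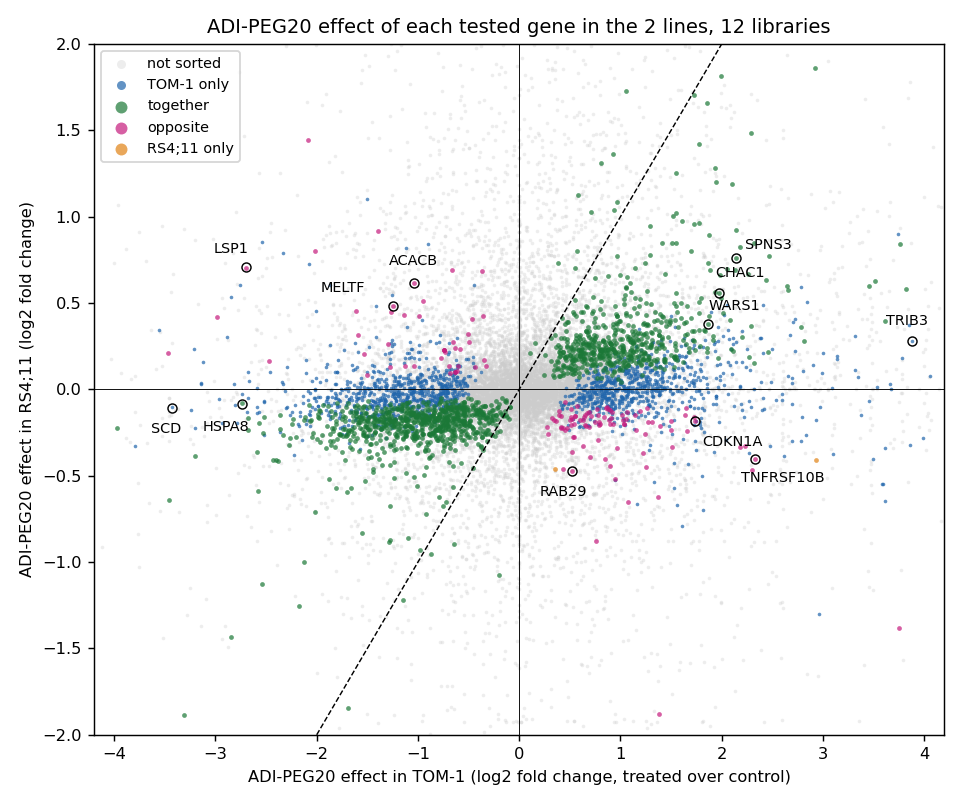
Each point is a tested gene, with its ADI-PEG20 effect in TOM-1 on the horizontal axis and in RS4;11 on the vertical axis (log2 fold changes, 12 libraries), coloured by class. The dashed line marks equal effects and 660 genes lie outside the axes. Points spread widely along the TOM-1 axis and stay near 0 on the other, and circled genes are those described in the text.

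Of the genes that rose in TOM-1 only, TRIB3 had the largest difference among those the naming rule selects. TRIB3 (chromosome 20, 362835 to 397559, GRCh38) encodes a pseudokinase that ATF4 induces and that feeds back on ATF4. Its level was 50.6, 45.1 and 85.6 CPM in the TOM-1 controls and 935, 881 and 843 CPM with the drug. In RS4;11 it was 19.6, 18.3 and 16.8 CPM in controls and 24.2, 25.0 and 17.2 CPM with the drug. The groups were far apart in TOM-1 and overlapped in RS4;11, and the difference was 3.6 ± 0.32 (SE, edgeR adjusted p = 7.55e-05). ERN1, which encodes the endoplasmic reticulum stress sensor IRE1 alpha, rose from 17.6, 15.5 and 7.95 CPM to 184, 199 and 184 CPM in TOM-1. It stayed between 6.10 and 7.73 CPM in all RS4;11 libraries, and its difference was 3.6 ± 0.33 (adjusted p = 9.71e-05).

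The other genes with the largest rises in TOM-1 only started low there. LIPC, encoding hepatic lipase, had a difference of 3.52, LRRC2, a leucine-rich repeat protein, 3.47, and CDC42EP3, a CDC42 effector, 3.27. Their TOM-1 control means were 0.56, 0.85 and 2.16 CPM, with 0 counts of LIPC and LRRC2 and 2 counts of CDC42EP3 in replicate 3, while their RS4;11 means lay between 11.8 and 40.5 CPM with or without the drug. In treated TOM-1 the 3 genes reached 7.09, 13.3 and 23.1 CPM. Without TOM-1 control replicate 3 their differences were 3.02, 2.97 and 2.77.

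Among the genes that fell in TOM-1 only, FRMPD1, a scaffold protein gene, had a difference of -3.47 ± 0.37 (adjusted p = 0.000265). SCD encodes the stearoyl-CoA desaturase that makes monounsaturated fatty acids. It fell from 110, 106 and 54.0 CPM to 7.92, 9.58 and 7.55 CPM in TOM-1, and in RS4;11 it was 285, 284 and 253 CPM in controls and 254, 268 and 243 CPM with the drug. Its difference was -3.32 ± 0.32 (adjusted p = 0.000118). CD52, the surface glycoprotein that alemtuzumab binds, fell from a mean of 31.5 to 3.31 CPM in TOM-1 and was 7.36 and 6.77 CPM in RS4;11, a difference of -3.13. HSPE1, the mitochondrial co-chaperonin, had a difference of -2.92. Without TOM-1 control replicate 3 the differences of FRMPD1, SCD, CD52 and HSPE1 were -3.545, -3.58, -2.65 and -2.46.

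By separation alone, 186 genes were higher in treated TOM-1 and lower in treated RS4;11 and 84 were the reverse, and the difference was called for 100 and 49 of these. RRAGC, a Rag GTPase that carries amino acid signals to mTORC1, rose in TOM-1 from 13.98, 14.35 and 18.7 CPM to 37.6, 39.4 and 35.2 CPM. Its level in the other line went from 11.97, 9.64 and 13.3 CPM to 7.45, 9.38 and 8.71 CPM. Each treated group lay wholly on its own side of the controls, and the difference was 1.71 ± 0.24 (adjusted p = 0.00131). Other genes on the same strand overlap 22.9% of the exonic bases of RRAGC, so part of its reads is uncertain. RAB29, a lysosome-associated Rab GTPase, rose from 25.2, 25.6 and 25.5 CPM to 36.7, 37.2 and 35.8 CPM in TOM-1 and went from 12.02, 11.4 and 11.7 CPM to 8.17, 9.13 and 7.99 CPM in the other line. Its difference was 1.00 ± 0.17 (adjusted p = 0.00311). DPH3, a gene of diphthamide synthesis, had a difference of 1.34 in the same direction. RAB43 had 1.25, but 79.3% of its exonic bases overlap another gene on its strand, so its value is uncertain. Its call was lost in 10 of 12 fits with a library left out. The RS4;11 effects of RRAGC, RAB29, DPH3 and RAB43 were not called with or without TOM-1 control replicate 3.

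In the reverse orientation, MELTF (chromosome 3, 196988621 to 197029816), encoding the iron-binding surface protein melanotransferrin, fell from 151, 152 and 224 CPM to 72.1, 74.3 and 74.5 CPM in TOM-1. In RS4;11 its level was 35.2, 33.9 and 26.2 CPM in controls and 47.2, 42.6 and 43.2 CPM with the drug, above every control. The difference was -1.73 ± 0.24 (adjusted p = 0.00108). LSP1, a leukocyte actin-binding protein, fell from a mean of 15.4 to 2.36 CPM in TOM-1 and was 3.59 and 5.85 CPM in RS4;11. Its difference was -3.40, or -2.98 without TOM-1 control replicate 3. ACACB, the acetyl-CoA carboxylase of the mitochondrial surface, fell from 5.58 to 2.71 CPM in TOM-1 and went from 8.65 to 13.3 CPM in RS4;11, a difference of -1.66. RWDD4P2, a processed pseudogene whose reads may belong to its parent gene, had a difference of -1.36 with TOM-1 adjusted p = 0.0538. The call of its difference was lost in 6 of 12 fits with a library left out. The RS4;11 effects of LSP1, ACACB and RWDD4P2 were not called with or without TOM-1 control replicate 3. That of MELTF was called only without that library (edgeR adjusted p = 0.0255).

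The 58 genes called in RS4;11 without TOM-1 control replicate 3 allow the sort to be repeated with a call in each line. Both lines were called in the same direction for 38 genes, 24 higher and 14 lower, and the difference between them was also called for 23 of these. Both were called in opposite directions for 7. The remaining 13 were called in RS4;11 and not in TOM-1, and for 9 of them the difference was called too. Genes from this set named below, other than those the rule selects, were picked with their values in view, and their fold changes come from the 11 libraries.

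The 7 called in opposite directions included BAX and HLA-DRA. BAX encodes the pore-forming death effector of the BCL2 family and is a p53 target. Its level in TOM-1 was 121 and 120 CPM in control replicates 1 and 2 and 178, 166 and 173 CPM with the drug, and in RS4;11 it was 68.9, 80.7 and 80.9 CPM in controls and 60.3, 59.4 and 63.3 CPM with the drug. The effects were 0.51 and -0.33, and the difference was 0.84 (adjusted p = 1.66e-06). With TOM-1 control replicate 3, at 263 CPM, the TOM-1 effect of BAX was 0.033 and the difference of 0.37 was not called (adjusted p = 0.564), so the call rests on leaving that library out. HLA-DRA, the alpha chain of the class II antigen-presenting molecule HLA-DR, was 726, 713 and 921 CPM in TOM-1 controls and 475, 478 and 462 CPM with the drug. In RS4;11 it was 157, 153 and 154 CPM in controls and 183, 182 and 179 CPM with the drug. Its difference was -0.97 with all libraries (adjusted p = 0.00285) and -0.84 when TOM-1 control replicate 3 was left out (adjusted p = 1.09e-08). MELTF was called in both lines, and so were SLC52A2, a riboflavin transporter, RPS19BP1, a binding partner of a ribosomal protein, and DPY19L1, a mannosyltransferase, of which SLC52A2, RPS19BP1 and DPY19L1 had a called difference only without TOM-1 control replicate 3. The seventh, ENSG00000231401, has no symbol and was under 1 CPM in all RS4;11 libraries.

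**Figure D3:**
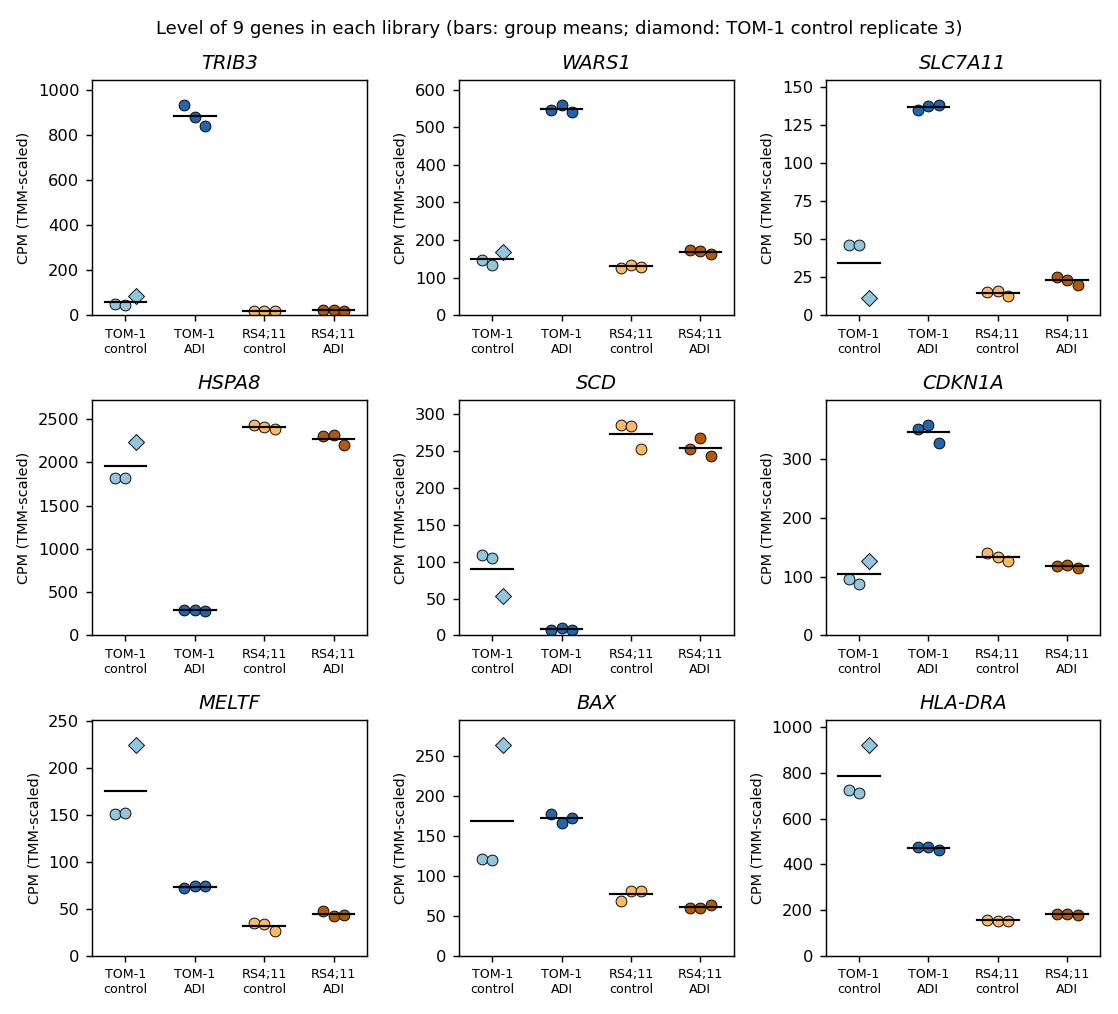
Levels of 9 genes in each library (vertical axes, CPM scaled by TMM, starting at 0) for the 4 groups, with bars at the group means and TOM-1 control replicate 3 as a diamond. TRIB3, WARS1 and SLC7A11 rose far more in TOM-1, HSPA8 and SCD fell there, CDKN1A rose in TOM-1 and was lower in treated RS4;11, and MELTF, BAX and HLA-DRA show opposite movement outside the diamond.

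Among the genes that moved together, the rule names 4 in each direction by the smaller of their effects. SPNS3, a sphingolipid transporter family gene, was 31.1, 34.9 and 73.1 CPM in TOM-1 controls and 204, 205 and 202 CPM with the drug. In RS4;11 it was 7.94, 6.01 and 6.31 CPM in controls and 12.3, 12.6 and 9.42 CPM with the drug. Both treated groups lay above their controls, and the difference of 1.38 ± 0.39 was called (adjusted p = 0.0406), but lost the call in 11 of 12 fits with a library left out and was 1.86 without TOM-1 control replicate 3. OSCAR, an immunoglobulin-like receptor, had effects of 1.88 and 0.69 and a difference of 1.19 whose call was also lost in 11 of 12, and ARRDC3, an arrestin-domain protein, had 2.26 and 0.67 and a difference of 1.59. The TOM-1 effects of these 3 genes were called, and so were their RS4;11 effects once TOM-1 control replicate 3 was left out (adjusted p = 0.0118, 0.0159 and 0.0255). For ZNF572, a zinc-finger gene, the effects were 1.44 and 0.67 and the difference of 0.77 was not called (adjusted p = 0.0869).

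In the downward direction, ZSCAN5A had nearly the same effect in each line, -0.75 and -0.68, and a difference of -0.072 with a 95% confidence interval from -0.86 to 0.72. ZNF219 had -1.28 and -0.68, and RASL10B, a Ras-like gene, -1.01 and -0.56. F12, coagulation factor XII, had -1.81 and -0.57, and without TOM-1 control replicate 3, in which it was 11.1 CPM against 2.98 and 2.03 CPM, its TOM-1 effect of -0.75 was not called (adjusted p = 0.075). None of these 4 had a called difference in either fit.

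Of the 38 genes called the same way in both lines without TOM-1 control replicate 3, the largest RS4;11 effects upward were those of SPNS3, OSCAR and ARRDC3, and FASN was among those lower. FASN, fatty acid synthase, was 560, 589 and 443 CPM in TOM-1 controls and 177, 186 and 180 CPM with the drug, and 894, 859 and 870 CPM against 754, 732 and 752 CPM in RS4;11. Every treated library lay below its controls, with effects of -1.67 and -0.23 and a difference of -1.44 (adjusted p = 2.37e-12). For 15 of the 38 the difference was not called. ATM, the kinase of the DNA damage response, was 1 of them, with effects of 0.40 and 0.36 and a difference of 0.038 (adjusted p = 0.855). BPTF, a chromatin remodelling subunit, had 0.26 and 0.30, and NDUFS6, a complex I subunit, -0.67 and -0.48.

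By separation alone, 649 genes were higher and 590 lower in treated RS4;11 with overlapping groups in TOM-1, and the difference was called for 7 and 3 of these. TNFRSF1B, encoding TNF receptor 2, was the one gene of that class that met the naming rule. It was 24.5, 28.0 and 19.5 CPM in RS4;11 controls and 17.1, 18.9 and 16.2 CPM with the drug, and 71.9, 70.3 and 93.0 CPM against 108, 100 and 92.5 CPM in TOM-1. The difference was 0.82 ± 0.23 (adjusted p = 0.0359), a call lost in 10 of 12 fits with a library left out. The RS4;11 effect of TNFRSF1B was not called with or without TOM-1 control replicate 3. Without that library its TOM-1 effect of 0.49 was called (edgeR adjusted p = 0.00107) and the gene was sorted as opposite. Of the 10 genes in the RS4;11 only class, 3 had a called TOM-1 effect and 0 a called RS4;11 effect with 12 libraries. Of genes called in RS4;11 and not in TOM-1 without that library, SH3PXD2A, a podosome scaffold gene, was 13.3, 13.5 and 13.0 CPM in RS4;11 controls and 20.0, 18.6 and 18.2 CPM with the drug. It was 152 and 175 CPM in TOM-1 control replicates 1 and 2 and 171, 152 and 158 CPM with the drug, and the difference was -0.55 (adjusted p = 0.000926). DOHH, the hydroxylase that completes hypusine on eIF5A, had effects of 0.17 in TOM-1 and -0.58 in RS4;11 and a difference of 0.75 (adjusted p = 0.00118).

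The remaining paragraphs take the genes by pathway. Members named in them that the naming rule does not select were chosen after their values were seen. Called differences of a list stand beside 5.89% of all tested genes called higher in TOM-1 and 6.05% lower. Without TOM-1 control replicate 3 these shares of all tested genes were 15.7% and 14.7%. Of the arginine genes, ASS1 separated the lines by level. All 3 TOM-1 controls had 0 counts of ASS1, and the treated libraries had 0.60, 0.19 and 0 CPM, at or near the floor. RS4;11 held 164, 180 and 140 CPM in controls and 260, 255 and 207 CPM with the drug, every treated library above every control. The fitted difference of ASS1 was not called (adjusted p = 0.0934, or 0.0579 without TOM-1 control replicate 3), and with TOM-1 controls at 0 its fold change depends on the prior count. Without that library the RS4;11 effect of ASS1, 0.57, was called (adjusted p = 0.0422). ASL had effects of -0.73 and -0.23, and its difference of -0.50 was not called (adjusted p = 0.252). SLC7A1, the main cationic amino acid transporter, was 320, 287 and 111 CPM in TOM-1 controls and 465, 457 and 456 CPM with the drug, and 204, 215 and 188 CPM against 251, 234 and 219 CPM in RS4;11. Its difference was 0.73 (adjusted p = 0.267), and leaving out TOM-1 control replicate 3 gave 0.38 (adjusted p = 0.00327).

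Of 26 listed genes of arginine and citrulline metabolism and transport, 22 were tested, and the difference was called higher in TOM-1 for 1 and lower for 3, with a median of -0.078, against 2 and 5 of 23 without TOM-1 control replicate 3. The 1 was SLC3A2, the heavy chain shared by several amino acid exchangers, at 1.16, and SMS and SRM, the synthases of the polyamines spermine and spermidine, had -0.75 and -1.27, or -0.53 and -0.77 without TOM-1 control replicate 3. The calls of these 3 were each lost in 9 of 12 fits with a library left out. The fourth was the nitric oxide synthase gene NOS2 at -1.37, from 12.9 to 4.01 CPM in TOM-1.

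ATF4 targets formed the group with the highest median difference. Of 37 listed, 34 were tested, and 18 had a difference called higher in TOM-1 and 1 lower, beside 5.89% and 6.05% of all tested genes. Their median effect was 1.31 in TOM-1 and 0.13 in RS4;11, and the median difference was 1.13 against 0.042 over all genes. Without TOM-1 control replicate 3 the counts were 27 and 1. ATF4 itself, which is regulated mainly at translation, was 527, 516 and 928 CPM in TOM-1 controls and 439, 437 and 435 CPM with the drug, and 573 to 606 against 559 to 621 CPM in RS4;11. Its TOM-1 effect was called lower in both fits, at -0.59 and -0.26. The difference of -0.59 was not called (adjusted p = 0.179), while leaving out TOM-1 control replicate 3 gave -0.26, which was called (adjusted p = 0.0121).

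Roles within that list differed. All 8 tested transcription factor and feedback genes had a difference called higher in TOM-1, with a median of 2.35. They included DDIT3, the death-associated factor CHOP, at 2.38 ± 0.39, and PPP1R15A, the phosphatase subunit GADD34 that reverses eIF2 alpha phosphorylation, at 3.07 ± 0.28. PPP1R15A rose from 24.4, 26.1 and 44.5 CPM to 252, 252 and 242 CPM in TOM-1 and was 23.6, 21.8 and 21.7 CPM against 20.3, 20.2 and 22.0 CPM in RS4;11. Of 7 brakes on mTORC1 and growth, 5 were called higher, among them SESN2, a leucine sensor that restrains mTORC1, at 1.85 ± 0.17. Of 8 amino acid transporters, 4 were called higher. Of 11 genes of amino acid and glutathione metabolism, 1 was called higher and 1 lower. The higher one was CHAC1, a glutathione-degrading enzyme, which rose from 12.7, 12.9 and 13.7 CPM to 51.8, 51.2 and 51.4 CPM in TOM-1. In RS4;11 it was 6.35, 5.60 and 5.79 CPM in controls and 10.6, 6.95 and 8.55 CPM with the drug, and the difference was 1.42 ± 0.22 (adjusted p = 0.0021). The lower one was ALDH18A1, the first enzyme of proline synthesis, at -0.89.

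Some ATF4 targets moved in both lines. ATF5, a stress factor of the ATF4 family, was 278, 265 and 416 CPM in TOM-1 controls and 749, 783 and 744 CPM with the drug, and 85.9, 82.4 and 86.3 CPM against 115, 117 and 111 CPM in RS4;11. The difference was 0.82 ± 0.22 (adjusted p = 0.029), and its call was lost in 10 of 12 fits with a library left out. Without TOM-1 control replicate 3 it was 1.05 (adjusted p = 1.5e-09). In that fit the RS4;11 effect of ATF5, 0.43, was called too (adjusted p = 0.00185). SLC7A11, the cystine-glutamate exchanger, was 46.0, 46.3 and 11.0 CPM in TOM-1 controls and 135, 138 and 138 CPM with the drug, and 15.2, 15.7 and 12.5 CPM against 25.3, 23.3 and 20.2 CPM in RS4;11. Its difference of 1.32 was not called (adjusted p = 0.133), while leaving out TOM-1 control replicate 3 gave 0.90, which was called (adjusted p = 3.18e-05). The RS4;11 effect of SLC7A11, 0.66, was also called in that fit (adjusted p = 0.00959). Of the 34 tested genes, 7 moved up together and 14 were sorted as up in TOM-1 only, beside 3.49% and 4.76% of all genes. In RS4;11 24 of the 34 had an effect above 0, beside 8698 of all 17349 tested genes.

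Cytosolic aminoacyl-tRNA synthetases, which charge tRNAs, did not move as a block. All 20 listed were tested, and 10 had a difference called higher in TOM-1 and 2 lower, with medians of 0.60 in TOM-1 and -0.066 in RS4;11, and the counts were 12 and 5 without TOM-1 control replicate 3. WARS1, the tryptophanyl enzyme, was 148, 135 and 169 CPM in TOM-1 controls and 547, 559 and 541 CPM with the drug, and 127, 134 and 129 CPM against 174, 171 and 162 CPM in RS4;11. Every treated library lay above its controls in both lines, and the difference was 1.49 ± 0.15 (adjusted p = 0.000172). Without TOM-1 control replicate 3 the RS4;11 effect of WARS1, 0.38, was called (adjusted p = 0.00959). SARS1 had a difference of 1.2 and AARS1 of 1.18, with RS4;11 effects of 0.070 and 0.040. QARS1 and HARS1, of the glutaminyl and histidyl enzymes, fell in TOM-1, with differences of -1.33 and -0.73. RARS1, the arginyl enzyme, had effects of -0.36 and -0.28 and a difference of -0.089 (adjusted p = 0.795).

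The 250 bases before RefSeq gene starts (GRCh38.p14) were searched on both strands for TGATGNAA, a form of the amino acid response element, the composite site of ATF4 and C/EBP factors. It was found before 6 of the 27 tested ATF4 targets that have an entry, before 3 of 16 synthetases, and in 3.14% of all 35116 promoters in that table. A listed gene counted if any of its promoters matched, while the 3.14% is of single promoters, so these shares are not on equal terms. The matches shown are from genes whose difference was called higher in TOM-1, written 5′ to 3′ on the gene's strand with the match in capitals, and they lie outside the exons of GENCODE 29.
ATF3, chr1:212565202-212565237: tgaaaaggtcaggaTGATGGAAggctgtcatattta
CEBPG, chr19:33374057-33374092: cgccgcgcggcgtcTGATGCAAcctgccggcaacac
JDP2, chr14:75427992-75428021: tatatagccggggcTGATGCAAcccgtccc
The differences of ATF3, CEBPG and JDP2, all of the factor and feedback group, were 2.79, 1.78 and 1.05. SLC1A5, a glutamine transporter with a match, had a difference of 0.24 that was not called (adjusted p = 0.437, or 0.000914 without TOM-1 control replicate 3). TRIB3, DDIT3, SESN2 and PPP1R15A had no match in this window, which says only that these letters are not in it.

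Genes of the p53 pathway contained the largest share of opposite movement among the lists. Of 25 listed, 24 were tested, 8 had a difference called higher in TOM-1 and 0 lower, and 18 and 0 without TOM-1 control replicate 3. The median effect was 0.68 in TOM-1 and -0.17 in RS4;11, and 4 of the 24 were sorted as opposite, or 9 without that library, beside 0.576% and 1.64% of all genes in that orientation. The 4 were TNFRSF10B, CDKN1A, AEN and DDB2, all higher in treated TOM-1 and lower in treated RS4;11. TNFRSF10B, the death receptor that binds TRAIL, was 23.3, 24.8 and 15.8 CPM in TOM-1 controls and 107, 114 and 102 CPM with the drug. In RS4;11 it was 17.6, 15.8 and 19.5 CPM in controls and 13.6, 12.1 and 14.2 CPM with the drug. Its difference was 2.74 ± 0.24 (adjusted p = 7.11e-05). CDKN1A, the cyclin-dependent kinase inhibitor p21, was 95.7, 88.2 and 127 CPM in TOM-1 controls and 351, 357 and 327 CPM with the drug, and 140, 133 and 127 CPM against 118, 120 and 115 CPM in RS4;11. Its difference was 1.92 ± 0.19 (adjusted p = 0.000157). The RS4;11 effects of these 4 genes were not called in either fit.

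In the BCL2 family, 15 of 16 listed genes were tested, and 2 had a difference called higher and 2 lower. PMAIP1 and BBC3, which encode the pro-death members NOXA and PUMA, had differences of 1.75 ± 0.19 and 1.68 ± 0.34. PMAIP1 rose from 86.4, 75.0 and 58.3 CPM to 247, 252 and 238 CPM in TOM-1 and lay between 116 and 126 CPM in every RS4;11 library. BID had -1.25. BCL2L11, the pro-death member BIM, was sorted as opposite, with effects of -0.64 and 0.10. Its difference was -0.74 ± 0.21, a call lost in 10 of 12 fits with a library left out. None of the 4 tested survival members had a called difference with 12 libraries. Without TOM-1 control replicate 3 the family had 6 called higher and 3 lower.

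**Figure D4:**
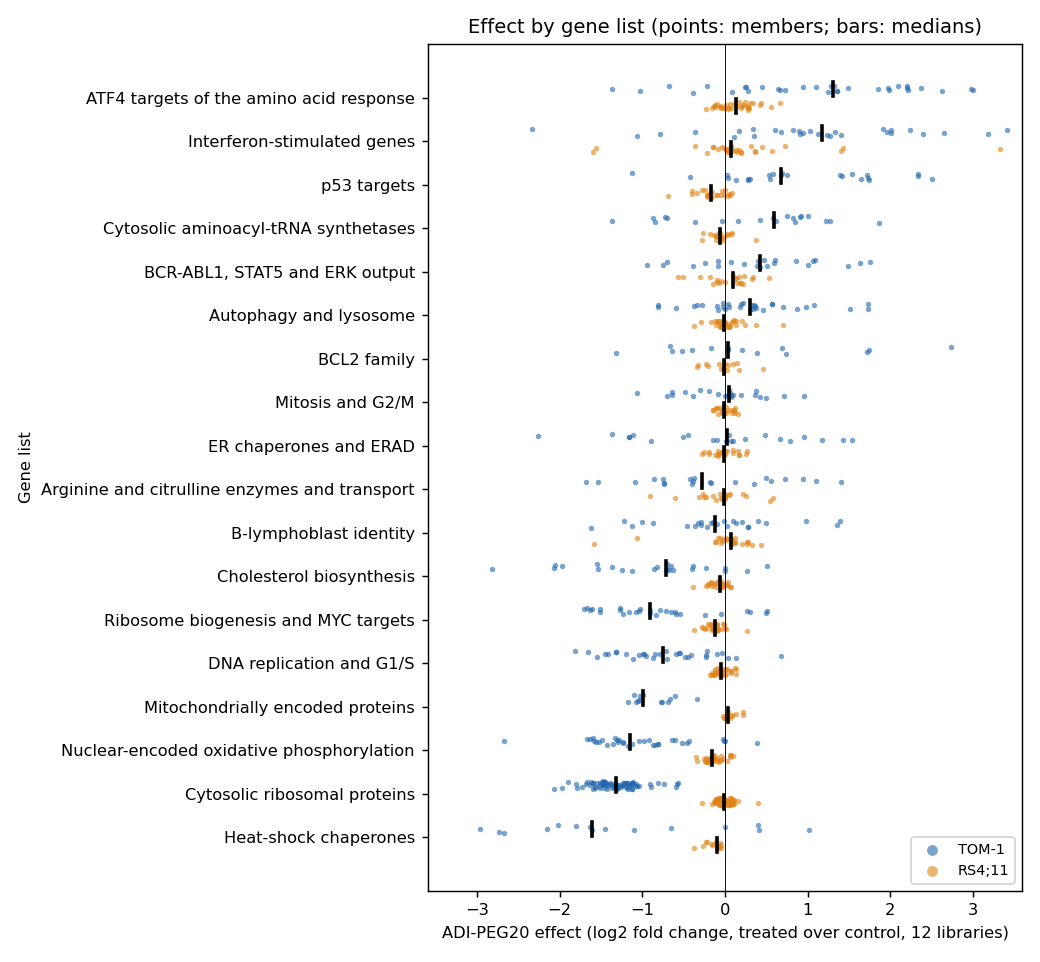
Points give the ADI-PEG20 effect (horizontal axis, log2 fold change, 12 libraries) of each tested member of 18 gene lists in TOM-1 (blue) and RS4;11 (orange), with black bars at the medians. Lists are ordered by their median difference, and 8 member values lie outside the axis. Median effects ran from -1.61 to 1.31 in TOM-1 and stayed within 0.17 of 0 in RS4;11.

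Sterol synthesis fell in TOM-1. Of 25 cholesterol genes listed, 24 were tested, and 11 had a difference called lower and 0 higher, against 18 lower and 1 higher without TOM-1 control replicate 3. The median effect was -0.71 in TOM-1 and -0.059 in RS4;11. MVD, the mevalonate decarboxylase, had a difference of -1.86, or -1.285 without TOM-1 control replicate 3. Its call was lost in 5 of 12 fits with a library left out. DHCR7, a late enzyme, had a difference of -1.81 with effects of -1.98 and -0.17. SREBF2, the factor that drives the pathway, had a difference of -0.72. CYP51A1, the lanosterol demethylase, had 0 counts in all 6 TOM-1 libraries and 3.89 to 8.97 CPM in RS4;11, so no TOM-1 effect could be measured for it. It belongs to 492 tested genes at 0 counts throughout TOM-1, against 265 throughout RS4;11.

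Of the ribosome biogenesis factors and MYC targets, 21 were called lower in TOM-1 and 1 higher, TAF1D, with 0 called in RS4;11. Over all tested genes 15.9% were called lower in TOM-1 and 15.9% higher. All 28 listed were tested, 13 had a difference called lower and 0 higher, and 13 moved down together, beside 4.58% of all genes. Without TOM-1 control replicate 3 the counts of the difference were 22 lower and 2 higher. Median effects were -0.91 and -0.13. NOP16 and POLR1E, of the nucleolus and RNA polymerase I, had differences of -1.62 ± 0.32 and -1.58 ± 0.27. Without TOM-1 control replicate 3 these were -1.265 and -1.336. MYC had an effect of -0.66 in TOM-1 and 0.0050 in RS4;11, with a difference of -0.66 (adjusted p = 0.0101).

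For the 79 cytosolic ribosomal protein genes the size of the difference depended on TOM-1 control replicate 3. With 12 libraries 27 were called lower in TOM-1 and 0 higher, with medians of -1.32 in TOM-1 and -0.0070 in RS4;11. Without that library 77 were called lower and 0 higher, and the TOM-1 median was -0.70. RPS9 was 1188, 1240 and 4176 CPM in TOM-1 controls and 530, 534 and 513 CPM with the drug, and its difference of -2.05 had a TOM-1 part of -2.07, or -1.21 without replicate 3. RPS15 had a difference of -1.86, or -1.08 without TOM-1 control replicate 3. The calls of RPS9 and RPS15 were lost in 8 and 9 of 12 fits with a library left out. The share of counts in these genes was 5.92% to 6.07% in treated TOM-1, 9.0% and 9.26% in TOM-1 control replicates 1 and 2, 19.9% in replicate 3 and 8.83% to 9.95% in RS4;11. The part of library composition in the values of other genes was not tested.

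Respiratory chain genes fell in TOM-1 from both genomes. Of 34 nuclear-encoded subunits, 6 had a difference called lower and 0 higher with 12 libraries and 19 lower and 1 higher without TOM-1 control replicate 3, and the TOM-1 median moved from -1.16 to -0.55 between these fits. In the sort 18 of the 34 moved down together, beside 4.58% of all genes. ATP5MC1, a subunit of the ATP synthase ring, was 91.7, 87.3 and 256 CPM in TOM-1 controls and 25.9, 22.0 and 20.1 CPM with the drug, and its difference was -2.51, or -1.82 without that library. NDUFA4 had -1.66. All 13 mitochondrially encoded protein genes were tested, 6 had a difference called lower and all 13 without that library, and medians were -0.997 in TOM-1 and 0.035 in RS4;11. MT-ND5 was 1630, 1676 and 1031 CPM in TOM-1 controls and 729, 666 and 778 CPM with the drug, and 815, 999 and 1010 CPM against 969, 1048 and 1257 CPM in RS4;11. Its difference was -1.21 ± 0.26 (adjusted p = 0.0107), and MT-CO3 had -1.19.

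Of the DNA replication and G1/S genes, 23 were called lower in TOM-1, beside 15.9% of all tested genes called lower there. All 32 listed were tested, 17 had a difference called lower and 1 higher, and 16 were sorted as down in TOM-1 only, beside 4.34% of all genes. Leaving out TOM-1 control replicate 3 gave 25 lower and 2 higher. Of 22 origin and fork genes 14 were called lower, with medians of -0.86 and -0.060. MCM5, a subunit of the replicative helicase, was 265, 257 and 402 CPM in TOM-1 controls and 104, 98.3 and 89.3 CPM with the drug, and 373 to 427 against 339 to 393 CPM in RS4;11. Its difference was -1.54 ± 0.23 (adjusted p = 0.0018), and GINS2, of the same helicase complex, had -1.77. Without TOM-1 control replicate 3 these differences were -1.31 and -1.36. E2F2 was the exception, with 170, 181 and 167 CPM in TOM-1 controls and 289, 270 and 267 CPM with the drug, effects of 0.67 and -0.14 and a difference of 0.81 ± 0.14. Of 23 mitotic genes, 1 was called, CCNB1 at -0.59, a call lost in 6 of 12 fits with a library left out, and the median difference was -0.0050. Leaving out TOM-1 control replicate 3 gave 5 lower and 2 higher.

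Cytosolic and mitochondrial chaperones of the heat-shock response had the lowest median difference of all lists, -1.46. Of 16 listed, 15 were tested, 10 had a difference called lower and 1 higher, and the counts were 10 and 4 without TOM-1 control replicate 3. HSPA8, the constitutive HSP70 and one of the most abundant of these mRNAs, was 1822, 1816 and 2234 CPM in TOM-1 controls and 299, 293 and 289 CPM with the drug. The RS4;11 libraries held 2429, 2404 and 2385 CPM in controls and 2302, 2314 and 2205 CPM with the drug, lower in every treated library. The effects were -2.74 and -0.082, and the difference was -2.66 ± 0.15 (adjusted p = 9.92e-06). HSPA9, the mitochondrial HSP70, moved the other way, from 508, 478 and 376 CPM to 909, 931 and 909 CPM in TOM-1, with a difference of 1.09 ± 0.17. In RS4;11 0 of the 15 had an effect above 0, beside 8698 of all 17349 tested genes. The median there was -0.093, with 0 calls with 12 libraries. Without TOM-1 control replicate 3, HSPB1 was called lower in RS4;11 at -0.237 (edgeR adjusted p = 0.0481).

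The same promoters were searched for GAANNTTCNNGAA, a run of 3 units of the heat-shock element that HSF1 binds. It was found before 5 of the 15 tested chaperone genes and in 0.441% of all promoters in the table, and some genes hold several or overlapping matches. Here too a gene counted if any of its promoters matched, while the 0.441% is of single promoters. Both windows shown belong to HSP90AB1, the constitutive HSP90, and lie outside the exons of GENCODE 29. The capitals mark the match, which is on the opposite strand and so appears as its reverse complement.
HSP90AB1, chr6:44247764-44247804: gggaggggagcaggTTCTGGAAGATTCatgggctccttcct
HSP90AB1, chr6:44247817-44247857: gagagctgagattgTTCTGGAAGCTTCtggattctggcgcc
The 5 genes were HSPA8, HSP90AB1, HSP90AA1, HSPD1 and CHORDC1, with differences of -2.66, -1.71, -1.38, -1.48 and 0.63, and the last was not called (adjusted p = 0.0873). A match is a description of the sequence and not a measure of binding.

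Genes of the endoplasmic reticulum were split. Of 22 tested, 2 had a difference called higher, HERPUD1 at 1.26 ± 0.15 and DNAJB9 at 1.01 ± 0.27, both of protein degradation and folding stress, and 4 lower, among them the foldase PDIA4 at -1.25 and the chaperone CALR at -1.07. The calls of DNAJB9 and CALR were lost in 9 and 2 of 12 fits with a library left out, and the counts were 7 higher and 8 lower without TOM-1 control replicate 3. HERPUD1 was 62.4, 60.02 and 56.5 CPM in TOM-1 controls and 160, 164 and 157 CPM with the drug, and 45.1 to 52.2 against 52.7 to 57.7 CPM in RS4;11, above in every treated library.

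Of 34 autophagy and lysosome genes listed, 33 were tested, and 6 had a difference called higher and 0 lower, against 14 and 3 without TOM-1 control replicate 3. MAP1LC3B, which coats autophagosomes, was 81.1, 82.3 and 96.7 CPM in TOM-1 controls and 286, 287 and 289 CPM with the drug, and between 75.8 and 84.5 CPM in all RS4;11 libraries. Its difference was 1.78 ± 0.15 (adjusted p = 7.11e-05), and SQSTM1, the cargo receptor p62, had 1.09. Of 16 autophagy genes 5 were called higher, and of 17 lysosomal genes 1.

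Of 32 interferon-stimulated genes tested, 9 had a difference called higher and 1 lower (14 and 2 without TOM-1 control replicate 3), with a median effect of 1.18 in TOM-1 and 0.076 in RS4;11. OAS1, an antiviral RNA sensor, was 2.36, 1.09 and 1.38 CPM in TOM-1 controls and 8.09, 9.39 and 8.34 CPM with the drug, a difference of 2.35 ± 0.37. XAF1 had 2.58, or 2.07 without TOM-1 control replicate 3, with 38.3% of its exonic bases overlapped on the other strand. Its call was lost in 9 of 12 fits with a library left out. BST2, the virion tether tetherin, fell from 82.1, 91.2 and 218 CPM to 26.0, 25.8 and 25.3 CPM in TOM-1. Its difference was -2.38 ± 0.41, or -1.80 without TOM-1 control replicate 3.

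Of 26 listed output genes of BCR-ABL1, STAT5 and ERK signalling, 23 were tested, and 2 had a difference called higher and 1 lower, a share near the 11.9% of all genes, and the counts were 6 and 1 without TOM-1 control replicate 3. SPRY2, an ERK feedback inhibitor, had a difference of 0.97, SOCS2, a STAT5 target, 0.47, and PIM2, a STAT5-induced kinase, -0.85. The calls of SOCS2 and PIM2 were lost in 10 and 5 of 12 fits with a library left out. Of 26 B-lymphoblast identity genes, 0 were called higher and 4 lower, against 5 and 6 without TOM-1 control replicate 3. Of all tested genes, 11.9% had a called difference with 12 libraries and 30.4% without that library. IKZF1 and IKZF3, the lymphoid factors Ikaros and Aiolos, had differences of -1.08 and -1.06, and SPIB, an ETS-family factor, had -1.74. The call of IKZF1 was lost in 8 of 12 fits with a library left out. Of the 24 markers of other cell types 8 were tested, and 1 was called, CSF1R, lower in TOM-1, against 1 higher and 2 lower without TOM-1 control replicate 3. Their summed level was 292 to 305 CPM in TOM-1 controls, 243 to 248 CPM in treated TOM-1 and 69.4 to 89.4 CPM in RS4;11, of which PECAM1 made up most in TOM-1. The part of these levels in the results was not tested.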

How the data were processed

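Polyadenylated RNA was sequenced from 12 libraries of the lines TOM-1 and RS4;11. The authors deposited raw read counts per Ensembl gene. The submitters' processing notes name STAR, SAMtools, featureCounts and hg38. The versions, annotation release and strand setting are not given in the sources used here. Without the strand setting, reads of genes that overlap on opposite strands cannot be told apart.

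Groups came from the labels. Genes were kept by filterByExpr, which left 17349 of 60664, and scaled by TMM in edgeR 4.0.16 (R 4.3.3). A quasi-likelihood fit of the 4 groups gave the effect in each line and their difference, with Benjamini-Hochberg adjustment over all tested genes and a threshold of 0.05. The fit was repeated without TOM-1 control replicate 3, with its own filter. Printed CPM values are scaled with all 12 libraries. The procedure was tested on simulated data. Alternatives used DESeq2 1.42.0 size factors and Wald test, limma 3.58.1 voom, upper-quartile factors, other filters, a replicate term and each library left out.

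Named genes had a symbol and a mean of at least 5 CPM in a group of each line. They were the 5 highest and 5 lowest differences of the TOM-1 only class, 4 per orientation of the opposite class, 4 per direction of the together class and up to 3 per direction of the RS4;11 only class, 10 genes of arginine and ATF4 biology whatever their values, and up to 4 members of each list. TOM-1 only, opposite and list genes also had to be called without TOM-1 control replicate 3. Some items are not reported here. The members, lists and rules were chosen with earlier results of these data known. Coordinates and overlaps are from GENCODE 29, and promoter sequences from RefSeq GRCh38.p14. Confidence intervals come from the edgeR fit and hold the spread between libraries, and the floor of 3 counts covers counting error only. Figures were drawn with matplotlib 3.10.9.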

Additional observations from a re-analysis of the deposited data

Results flagged for a closer look

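Of the 79 named genes, 69 are listed here because the test of the difference itself (edgeR's interaction of line and drug, adjusted p under 0.05) set the effects of the lines apart. Each value is the log2 difference of the effect, TOM-1 minus RS4;11, with all 12 libraries. Without TOM-1 control replicate 3 some of these sizes changed, as given above. The groups below follow the sorting by separation, and with 12 libraries 0 genes had a called RS4;11 effect.

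Genes higher in treated TOM-1 only had these differences: TRIB3 3.6, ERN1 3.6, LIPC 3.52, LRRC2 3.47, CDC42EP3 3.27, PPP1R15A 3.07, XAF1 2.58, DDIT3 2.38, OAS1 2.35, MAP1LC3B 1.78, PMAIP1 1.75 and BBC3 1.68. Further genes of the same pattern were: SARS1 1.2, SLC3A2 1.16, SQSTM1 1.09, HSPA9 1.09, DNAJB9 1.01, SPRY2 0.97 and SOCS2 0.47.

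Genes lower in treated TOM-1 only had these differences: CCNB1 -0.59, HARS1 -0.73, SMS -0.75, PIM2 -0.85, ALDH18A1 -0.89, IKZF3 -1.06, IKZF1 -1.08, MT-CO3 -1.19, MT-ND5 -1.21, BID -1.25, QARS1 -1.33 and MCM5 -1.54. Further genes of the same pattern were: POLR1E -1.58, NOP16 -1.62, NDUFA4 -1.66, GINS2 -1.77, MVD -1.86, RPS9 -2.05, BST2 -2.38, HSPE1 -2.92, CD52 -3.13, SCD -3.32 and FRMPD1 -3.47.

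Genes higher in treated TOM-1 and lower in treated RS4;11 had these differences: TNFRSF10B 2.74, CDKN1A 1.92, RRAGC 1.71, DPH3 1.34, RAB43 1.25, RAB29 1.00 and E2F2 0.81. The RS4;11 effects of these genes were not called with or without TOM-1 control replicate 3.

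Genes with the reverse orientation had these differences: BCL2L11 -0.74, RWDD4P2 -1.36, ACACB -1.66, MELTF -1.73 and LSP1 -3.40. Of these, MELTF alone had a called RS4;11 effect, and only without TOM-1 control replicate 3.

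Genes that moved up in both lines, and more in TOM-1, had these differences: SESN2 1.85, ARRDC3 1.59, WARS1 1.49, CHAC1 1.42, SPNS3 1.38, HERPUD1 1.26, OSCAR 1.19 and ATF5 0.82.

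Genes sorted as down in both lines, and more in TOM-1, had these differences: CALR -1.07, PDIA4 -1.25, SRM -1.27, RPS15 -1.86, ATP5MC1 -2.51 and HSPA8 -2.66. Their RS4;11 effects were not called with or without TOM-1 control replicate 3.

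For the gene sorted as RS4;11 only the difference was: TNFRSF1B 0.82. Its RS4;11 effect was not called with or without TOM-1 control replicate 3, and its TOM-1 effect was called without that library.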

How the results depend on the processing

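The number of genes whose effect differed was 2072, and it was 3228 with DESeq2's Wald test and 5868 with voom and sample quality weights, of which 3033 were higher and 2835 lower in TOM-1, against 1761 lower with DESeq2. The TOM-1 only class then held 2445 and 3639 genes, the RS4;11 only class 46 and 333, and the opposite class 255 with voom, while no filter on low counts put 19 genes in the RS4;11 only class. The other normalizations and filters gave 2104 to 2253 genes with a difference. The causes of these changes were not tested. With each library left out in turn, the difference was called for 1169 to 5567 genes, with 523 to 2876 higher and 625 to 2691 lower in TOM-1. The classes held 1340 to 2105 (together), 91 to 476 (opposite), 776 to 4193 (TOM-1 only) and 1 to 70 genes (RS4;11 only). The upper end was the fit without TOM-1 control replicate 3 for every count but the together class.

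Ribosomal protein genes were the list that varied most, with 27 called, 15 with the replicate block and 6 to 77 with a library left out. For the 79 named genes, 777 of 948 values with a library left out kept their direction and call, 166 lost the call, 4 gained it and 1 changed sign. That was ZSCAN5A, whose difference of -0.072 was 0.148 (adjusted p = 0.861) without TOM-1 control replicate 1 and -0.258 without replicate 3. OSCAR and SPNS3 lost the call in 11 of 12 such fits, and ATF5, BCL2L11, RAB43, SOCS2 and TNFRSF1B in 10.

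The replicate numbers of the titles were not used as pairs. Deviations of same-numbered samples correlated at -0.056 to 0.257, and only 3 of 18 pairs were over 0.1. Within RS4;11, control and treated libraries of the same number correlated at 0.106, 0.076 and 0.257. Replicates 1 and 2 across those groups gave 0.077 and 0.091, and replicate 3 with another number gave -0.167 to -0.123. Pairing within RS4;11 alone was not tested. With the replicate block 1939 genes had a called difference, 992 higher and 947 lower, and 6 of the 79 named genes lost the call.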
